A study of Homo sapiens with 6 samples.

Results

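Origin licensing loads the replicative helicase onto DNA before S phase, and its transcripts were followed here through 10 genes: ORC1 and ORC6 of the origin recognition complex, the loading factors CDC6 and CDT1, and the helicase subunits MCM2, MCM3, MCM4, MCM5, MCM6 and MCM7. The genes were found by symbol in a table of 11314 genes, and each of the 10 had 1 row. All 10 were called higher in libraries titled SPIN1 (n = 3) relative to libraries titled NC (n = 3), by 2.00-fold (ORC6) to 9.99-fold (ORC1) in mean FPKM; the call of ORC6 was lost in several alternative fits. The subunits of the helicase had unequal differences, and the MCM transcripts were closer to each other in level in the libraries titled SPIN1. ORC2, ORC3, ORC4 and ORC5, the remaining ATPase-fold subunits of the origin recognition complex, did not pass the same test.

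In G1 the origin recognition complex binds DNA, recruits CDC6, and together with CDT1 closes a ring of MCM2 to MCM7 around the double helix. The ring holds each subunit once and stays inactive until kinases and the CDC45 and GINS proteins turn it into the moving helicase of S phase. Relicensing within the same cycle is prevented because geminin (GMNN) binds CDT1 and ubiquitin ligases destroy it, and most of the genes are textbook targets of the E2F transcription factors.

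The libraries came from SNU-668, an established gastric cancer cell line, in a subline resistant to erastin, a compound that blocks cystine uptake and sets off ferroptosis. All 6 libraries share that resistance; per the treatment text the cells were transfected with a short hairpin RNA, directed at SPIN1 (titled SPIN1, n = 3) or a control (titled NC, n = 3). The labels used here state neither hairpin sequence nor harvest time, and nothing says that the 3 libraries of a title came from separate cultures, so p-values measure the spread between these libraries only, which may be technical. The labels conflict. By genotype entry, it is the NC titles that carry the knockdown and the SPIN1 titles that are wild type. The design text speaks of ALKBH3, and no label explains the prefix RLS3 found in each title. Groups follow the titles, and "higher" or "lower" means in the libraries titled SPIN1 against those titled NC.

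SPIN1, which encodes the histone reader spindlin 1, was at 0.324, 0.629 and 2.49 FPKM, a read density corrected for transcript length and library size, in the libraries titled SPIN1, and at 0.322, 6.18 and 7.97 FPKM in those titled NC. Titled NC replicate 1 thus had as little SPIN1 as the lowest library titled SPIN1, and the gene did not check the titles (log2 difference -1.17, SE 0.77, limma adjusted p = 0.307; -2.03 and adjusted p = 0.0301 without titled NC replicate 1, and -1.87 and 0.0248 with weights per library). ALKBH3 did not separate the groups either (limma adjusted p = 0.381). Median FPKM was 5.16 to 5.49 in the libraries titled SPIN1 and 4.91 to 5.12 in those titled NC; with no counts the depth is unknown. Of the epithelial markers 3 of 8 had a row. KRT8 was 2.25-fold higher (limma adjusted p = 0.0153) and KRT18 1.64-fold higher (0.0399), with loci that overlap on opposite strands, and both calls were lost in at least 1 fit with 1 library left out. EPCAM was at 0.740 to 1.44 FPKM in the libraries titled SPIN1 and 0.313 to 0.790 FPKM in those titled NC (limma adjusted p = 0.169), and KRT19, CDH1, CLDN4 and CLDN7 had no row. Of 6 leukocyte markers 3 had a row and summed to 91.3 to 156 FPKM in the libraries titled SPIN1 and 169 to 182 FPKM in those titled NC. CD14 was 2.09-fold lower (limma adjusted p = 0.0116). LYZ was 2.85-fold lower (limma adjusted p = 0.00875), but at low levels. It had 0.265 to 0.443 FPKM in the libraries titled SPIN1 and 0.805 to 1.15 FPKM in those titled NC. CD68, which made up most of the sum, did not pass (limma adjusted p = 0.169). Of 6 fibroblast markers 3 had a row and summed to 182 to 261 FPKM in the libraries titled SPIN1 and 176 to 202 FPKM in those titled NC. LUM was 2.81-fold higher (limma adjusted p = 0.00506) and DCN 2.44-fold higher (0.00902), and COL3A1, which made up most of the sum, did not pass (0.379). The defining PTPRC and CD3E, COL1A1 and PDGFRB, and PECAM1 and VWF had no row, and 1 of 4 endothelial markers, CDH5, was at 0.348 to 1.22 FPKM in the libraries titled SPIN1 and 1.40 to 1.73 FPKM in those titled NC (limma adjusted p = 0.101). The part of these markers in the results below was not tested.

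The start regions of the genes are shown first, as a description. Most of the genes are known E2F targets, so E2F motifs were foreseen in them. The part of these motifs in the differences was not tested. RefSeq windows (GRCh38.p14, 250 bases before to 50 after each transcript start) were found for 8 of the 10 genes, MCM7 having 3 windows; MCM4 and MCM5 are named only. Both strands were searched for the E2F letters TTTCCCGC, TTTCGCGC, TTTGCCGC and TTTGGCGC, and for the 7-letter forms that remain when the first T is dropped, which include every longer match. Below, each sequence runs 5′ to 3′ along the gene from 250 bases before the start to 30 after it, and capitals mark E2F letters of either length. ORC1, CDC6 and MCM2 are shown as 3 of the genes with the largest differences, MCM6 for its pair of matches, and ORC6 as the gene with the smallest difference.
ORC1 (chr1:52404394-52404673, minus strand): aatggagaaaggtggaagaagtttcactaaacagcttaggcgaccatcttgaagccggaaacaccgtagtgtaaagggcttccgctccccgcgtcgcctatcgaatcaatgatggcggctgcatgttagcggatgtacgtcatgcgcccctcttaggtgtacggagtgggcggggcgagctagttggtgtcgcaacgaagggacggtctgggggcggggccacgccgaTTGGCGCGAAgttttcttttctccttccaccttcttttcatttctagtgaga
CDC6 (chr17:40287629-40287908, plus strand): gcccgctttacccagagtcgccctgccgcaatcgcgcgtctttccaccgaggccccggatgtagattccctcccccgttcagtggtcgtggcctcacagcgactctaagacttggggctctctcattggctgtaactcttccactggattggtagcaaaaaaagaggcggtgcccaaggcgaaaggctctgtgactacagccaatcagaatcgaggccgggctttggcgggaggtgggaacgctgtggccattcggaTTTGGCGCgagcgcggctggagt
MCM2 (chr3:127598161-127598440, plus strand): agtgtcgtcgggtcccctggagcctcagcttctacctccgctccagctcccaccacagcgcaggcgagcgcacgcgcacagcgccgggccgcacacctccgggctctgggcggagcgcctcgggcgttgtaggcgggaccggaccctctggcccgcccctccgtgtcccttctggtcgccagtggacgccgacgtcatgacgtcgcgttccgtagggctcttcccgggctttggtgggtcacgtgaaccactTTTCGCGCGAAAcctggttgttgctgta
MCM6 (chr2:135876414-135876693, minus strand): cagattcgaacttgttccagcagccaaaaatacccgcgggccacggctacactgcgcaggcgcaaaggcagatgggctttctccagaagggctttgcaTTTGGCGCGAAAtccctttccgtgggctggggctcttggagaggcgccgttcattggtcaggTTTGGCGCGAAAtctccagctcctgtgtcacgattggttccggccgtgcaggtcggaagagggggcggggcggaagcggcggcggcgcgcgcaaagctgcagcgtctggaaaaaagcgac
ORC6 (chr16:46689409-46689688, plus strand): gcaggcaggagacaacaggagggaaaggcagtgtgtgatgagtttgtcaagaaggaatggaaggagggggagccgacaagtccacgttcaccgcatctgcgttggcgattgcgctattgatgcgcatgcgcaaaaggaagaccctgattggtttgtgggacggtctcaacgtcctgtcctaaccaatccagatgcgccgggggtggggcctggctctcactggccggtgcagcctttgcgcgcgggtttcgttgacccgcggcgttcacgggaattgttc

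The 8-letter form was found in 6 of the 8 genes (CDC6, CDT1, MCM2, MCM3, MCM6 and MCM7), against 3.31% of all 35116 RefSeq windows. A gene was counted if any of its windows held the letters, whereas the percentages are per window. Of its 3 windows, MCM7 held the 8-letter form in window 3 only. The 7-letter form was found in 7, ORC1 added, against 13.0% of all windows. MCM6 held 2 stretches that read as E2F letters on both strands, beginning 152 and 90 bases before the start, and MCM2 held 1 that begins at base 3 after it. Of ORC2 to ORC5, which did not pass the test of levels, ORC3 held both E2F forms and the other 3 neither. In ORC1 the match began 22 bases before the start and overlapped a CCAAT box, the letters bound by NF-Y. ORC6 held neither E2F form but 2 CCAAT boxes, which 6 of the 8 genes and 34.6% of all windows held. The letters TTTGAA, the core of the CHR element of mitotic genes, were in 15.2% of all windows and in no window of the 8 genes. The members' windows were 55.3% to 74.3% G and C, where the median of all windows was 58.7%, and the match of letters is a description, not a binding site.

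**Figure D1:**
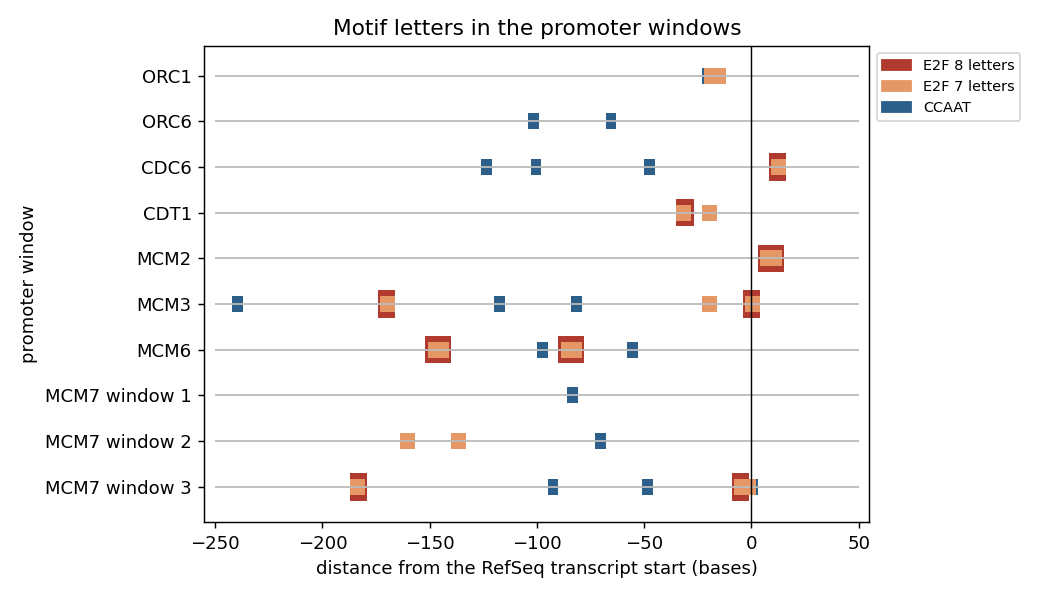
Position of E2F letters (red, 8 letters; orange, 7 letters) and CCAAT letters (blue) in the RefSeq start windows of 8 genes, as distance in bases from the transcript start; the line marks the start. ORC6 and window 1 of MCM7 show CCAAT letters alone, while MCM6 shows 2 E2F stretches at 152 and 90 bases before its start.

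Differences were tested with limma on log2(FPKM + 1) over the 11061 genes whose mean reached 0.5 FPKM, with Benjamini-Hochberg adjustment over all of them and a threshold of 0.05. All 10 licensing genes passed that filter and were called higher, where 17.3% of all genes tested were called higher (1914), 10.3% lower (1139) and 27.6% either way. After quantile normalization 1596 were higher and 1570 lower. The calls over all genes depended on the libraries: leaving out titled SPIN1 replicate 2 left 1265 higher, and leaving out titled NC replicate 2 or 3 left 1128 or 1270. In all 10 genes the groups did not overlap, where 27.2% of genes tested did not overlap and were higher. Of the 10, 9 were higher by at least 1 on the log2 scale, as were 3.89% of all genes tested. The median log2 difference of the 10 was 1.87 against 0.05 for all genes tested. In bulk RNA, a larger share of cells in the phase that makes these transcripts and more transcript per cell cannot be told apart.

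**Figure D2:**
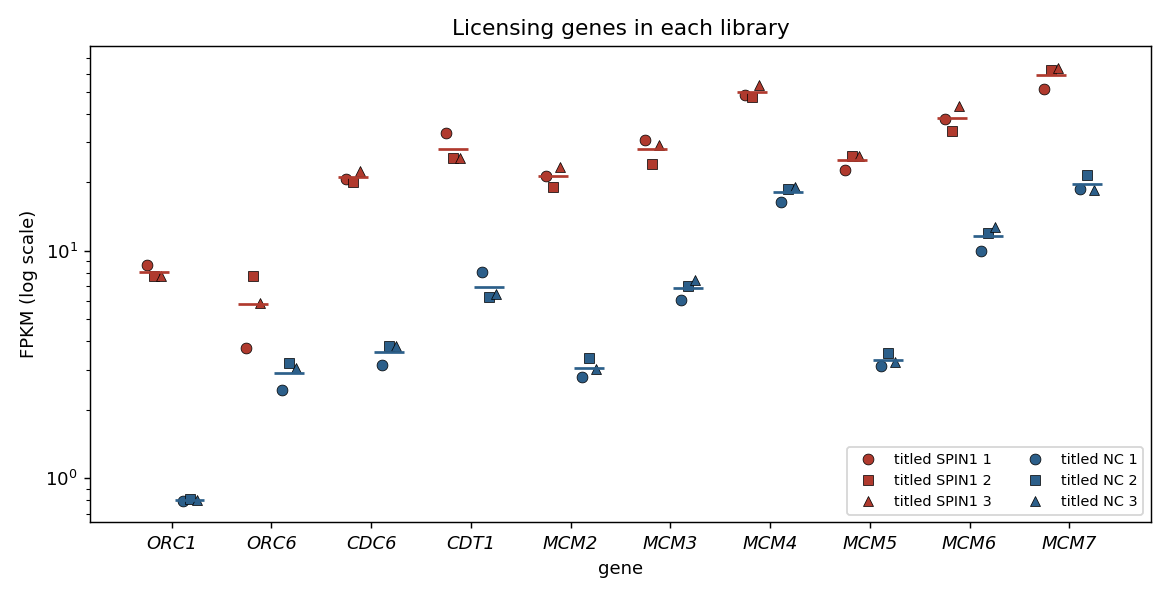
FPKM of the 10 licensing genes in each library on a log axis, libraries titled SPIN1 in red and titled NC in blue, with symbols for replicates 1 to 3 and a bar at each group mean (n = 3 each). The groups stand apart in every gene and come closest in ORC6, where titled SPIN1 replicate 1 was at 3.75 FPKM and titled NC replicate 2 at 3.23 FPKM.

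ORC1 (ENSG00000085840.12_2, hg19 chr1:52838501-52870131, on the minus strand), an ATPase subunit that contacts CDC6 and is destroyed in S phase in human cells, had the largest fold. It had 8.69, 7.74 and 7.75 FPKM in the libraries titled SPIN1, against 0.799, 0.815 and 0.805 FPKM in those titled NC. The libraries of each title lay close together, and the lowest titled SPIN1 library was 9.50 times the highest titled NC library. The difference was 2.32 on the log2(FPKM + 1) scale (SE 0.10, limma adjusted p = 0.000202), the 19th largest of all genes tested.

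ORC6 (ENSG00000091651.8_3, hg19 chr16:46723555-46732306, on the plus strand), the smallest subunit and the one outside the ring of ATPases, moved least. It had 3.75, 7.78 and 5.90 FPKM in the libraries titled SPIN1, against 2.44, 3.23 and 3.04 FPKM in those titled NC. Titled SPIN1 replicate 1 was near the libraries titled NC and replicate 2 was highest. The log2 difference of 0.76 (SE 0.23) passed narrowly (limma adjusted p = 0.0488). The call was lost after median scaling (adjusted p = 0.0644) or quantile normalization (adjusted p = 0.0592). It was also lost in 5 of the 6 fits with 1 library left out: the limma adjusted p was 0.113 or 0.122 when titled SPIN1 replicate 2 or 3 was dropped, and 0.134, 0.0941 or 0.105 when titled NC replicate 1, 2 or 3 was dropped. Without titled SPIN1 replicate 1 the difference was 1.00 (limma adjusted p = 0.00906).

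The subunits of the ATPase ring beside ORC1 did not pass the test. ORC2 had 4.12, 4.26 and 5.05 FPKM in the libraries titled SPIN1, against 3.77, 4.46 and 4.32 FPKM in those titled NC (log2 difference 0.08, SE 0.11, limma adjusted p = 0.656). ORC4 differed by 0.02 (SE 0.13, limma adjusted p = 0.942) and ORC5 by 0.02 (SE 0.14, limma adjusted p = 0.925), and in all 3 the groups overlapped. ORC3 was at 6.34 ± 1.08 FPKM in the libraries titled SPIN1 and 4.69 ± 0.361 FPKM in those titled NC (SD, n = 3 each), with groups that did not overlap (limma adjusted p = 0.0929). It passed with weights per library (adjusted p = 0.0179) or when titled SPIN1 replicate 1 was left out (0.0373). Relative to the mean log2 level of ORC2 to ORC5, ORC1 lay at 0.574, 0.332 and 0.126 in the libraries titled SPIN1, and at -2.56, -2.74 and -2.77 in those titled NC. In the libraries titled SPIN1, ORC5 alone was above ORC1, at 13.2, 17.5 and 17.9 FPKM. The ratio of ORC1 to the mean of its partners was slightly above parity in those libraries and far under it in those titled NC. The difference of this ratio was 3.03 on the log2 scale, and that of ORC6 over the same partners was 0.79 (two-sided exact permutation p = 0.1 for each, the smallest that 3 against 3 libraries allow).

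CDC6 (ENSG00000094804.9_2, hg19 chr17:38443885-38460909, on the plus strand), the ATPase that completes the loading platform on the origin recognition complex, had 20.6, 20.02 and 22.5 FPKM in the libraries titled SPIN1, against 3.14, 3.80 and 3.83 FPKM in those titled NC. Each titled SPIN1 library was at least 5.23 times each titled NC library, with a log2 difference of 2.27 (SE 0.11, limma adjusted p = 0.000213). CDT1 (ENSG00000167513.8_3, hg19 chr16:88869621-88875666, on the plus strand), which brings the MCM ring to the origin, had 32.9, 25.6 and 25.4 FPKM in the libraries titled SPIN1, against 8.10, 6.27 and 6.44 FPKM in those titled NC. In CDT1 replicate 1 was the highest library of each title, with a log2 difference of 1.87 (SE 0.14, limma adjusted p = 0.000633).

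Geminin, the inhibitor of CDT1, was more variable. GMNN had 11.9, 19.3 and 9.36 FPKM in the libraries titled SPIN1, against 8.34, 7.41 and 6.43 FPKM in those titled NC. The groups did not overlap, but the difference of 0.74 (SE 0.25) did not pass (limma adjusted p = 0.0695). It passed with weights per library (adjusted p = 0.00483) or when titled SPIN1 replicate 3 was left out (0.0349). The log2 ratio of CDT1 to GMNN was 1.46, 0.407 and 1.43 in the libraries titled SPIN1, and -0.043, -0.239 and 0.001 in those titled NC. The 2 transcripts were thus near parity in the libraries titled NC, and CDT1 exceeded GMNN in each library titled SPIN1, least in replicate 2, by a mean difference of 1.19 (two-sided exact permutation p = 0.1).

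The helicase subunits were all higher. MCM2 and MCM5 flank the gate through which DNA enters the ring, and they had the largest differences of the 6. MCM5 (ENSG00000100297.15_3, hg19 chr22:35796056-35821423, on the plus strand) had 22.6, 26.1 and 26.1 FPKM in the libraries titled SPIN1, against 3.11, 3.55 and 3.26 FPKM in those titled NC (log2 difference 2.59, SE 0.10, limma adjusted p = 0.000198). It had the 7th largest difference of all genes tested. MCM2 (ENSG00000073111.13_3, hg19 chr3:127317066-127341279, on the plus strand), which also carries histones H3 and H4, had 21.4, 19.0 and 23.3 FPKM in the libraries titled SPIN1, against 2.78, 3.38 and 3.01 FPKM in those titled NC (log2 difference 2.45, SE 0.11, limma adjusted p = 0.000213). MCM3 (ENSG00000112118.18_2, hg19 chr6:52128807-52149679, on the minus strand), the neighbour of MCM5 in the ring, had 30.7, 24.1 and 29.3 FPKM in the libraries titled SPIN1, against 6.08, 7.02 and 7.47 FPKM in those titled NC. Its difference of 1.88 (SE 0.13, limma adjusted p = 0.000558) lay between the gate pair and the other subunits.

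MCM4, MCM6 and MCM7, which can form a subcomplex with helicase activity, had smaller differences than MCM2, MCM3 and MCM5. Within the libraries titled NC, MCM4, MCM6 and MCM7 were at higher levels than MCM2, MCM3 and MCM5. MCM4 (ENSG00000104738.16_3, hg19 chr8:48872745-48890720, on the plus strand) had 48.3, 47.2 and 53.7 FPKM in the libraries titled SPIN1, against 16.4, 18.6 and 19.1 FPKM in those titled NC (log2 difference 1.41, SE 0.10, limma adjusted p = 0.000594). MCM6 (ENSG00000076003.4_2, hg19 chr2:136597196-136633996, on the minus strand) had 37.8, 33.7 and 43.1 FPKM in the libraries titled SPIN1, against 9.98, 12.0 and 12.7 FPKM in those titled NC (log2 difference 1.64, SE 0.13, limma adjusted p = 0.000691). MCM7 (ENSG00000166508.17_3, hg19 chr7:99690351-99699563, on the minus strand) had 51.4, 61.9 and 63.8 FPKM in the libraries titled SPIN1, against 18.8, 21.5 and 18.5 FPKM in those titled NC (log2 difference 1.54, SE 0.12, limma adjusted p = 0.000629). Groups stood apart in each of the 3, and the lowest titled SPIN1 library was 2.39 (MCM7) to 2.65 (MCM6) times the highest titled NC library. Apart from ORC6, each licensing gene kept its call in the 16 alternative fits, with limma adjusted p up to 0.00865.

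**Figure D3:**
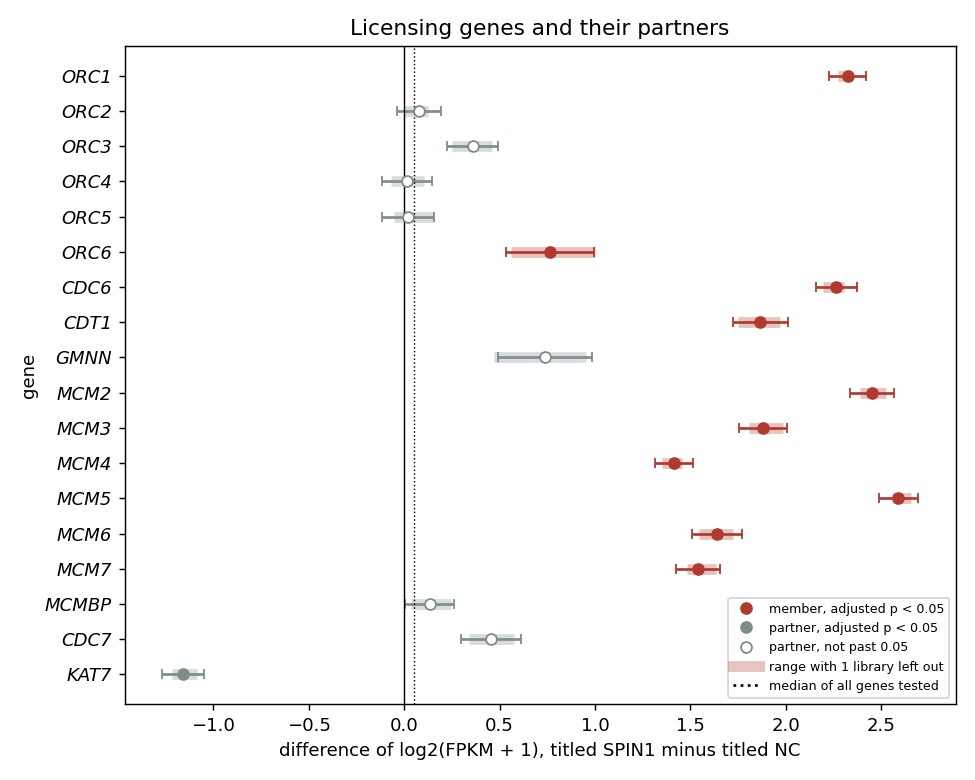
Difference of log2(FPKM + 1), titled SPIN1 minus titled NC, for the 10 licensing genes (red) and 8 of their partners (grey), with SE bars, filled where limma's adjusted p was under 0.05; pale bands span the fits with 1 library left out and the dotted line is the median of all genes tested (0.05). ORC2, ORC4 and ORC5 lie near that line, KAT7 at -1.16 and MCM5 at 2.59.

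Ordered by level per length, the helicase genes ran MCM7, MCM4, MCM6, MCM3, MCM5 and MCM2 by their means in both titles. MCM7 and MCM4 overlapped in both titles (59.0 ± 6.69 and 49.8 ± 3.49 FPKM in the libraries titled SPIN1, 19.6 ± 1.65 and 18.0 ± 1.45 FPKM in those titled NC; SD, n = 3 each), as did MCM5 and MCM2. MCM3 and MCM5 overlapped in the libraries titled SPIN1, where MCM5 was above MCM3 in replicate 2. Among all 10 genes, CDT1 and MCM3 overlapped in both titles, and ORC1 and ORC6 had the lowest means in both. In the libraries titled NC, ORC6 overlapped MCM2 and was above it in replicate 3 (3.04 against 3.01 FPKM). ORC1 was below ORC6 without overlap in the libraries titled NC only, an order whose change was not tested. The sum of MCM2 to MCM7 was 212, 212 and 239 FPKM in the libraries titled SPIN1, against 57.1, 66.1 and 64.2 FPKM in those titled NC, or 3.54 times higher in the mean. The highest of the 6 was 2.40, 3.25 and 2.74 times the lowest in the libraries titled SPIN1, and 6.76, 6.35 and 6.35 times in those titled NC.

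The make-up of this sum differed between the titles. MCM5 took 11.3% ± 0.883 of it in the libraries titled SPIN1 and 5.30% ± 0.190 in those titled NC, and MCM2 took 9.60% ± 0.565 and 4.89% ± 0.215. MCM4 took 22.5% ± 0.255 in the libraries titled SPIN1 and 28.9% ± 0.859 in those titled NC (SD, n = 3 each), the groups not overlapping in these 3 genes. The shares of MCM3, MCM6 and MCM7 overlapped between the titles. As a log2 ratio to the mean of the other 5 genes, MCM5 differed by 0.97, MCM2 by 0.83, MCM6 by -0.42, MCM7 by -0.58 and MCM4 by -0.73, each with groups that did not overlap. MCM3 differed by -0.07 with overlapping groups. The two-sided exact permutation p was 0.1 for each of the 5, the smallest possible, and 0.6 for MCM3; adjusted over the 6 ratios the exact p was 0.12 for the 5, so the design could not bring them under 0.05.

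**Figure D4:**
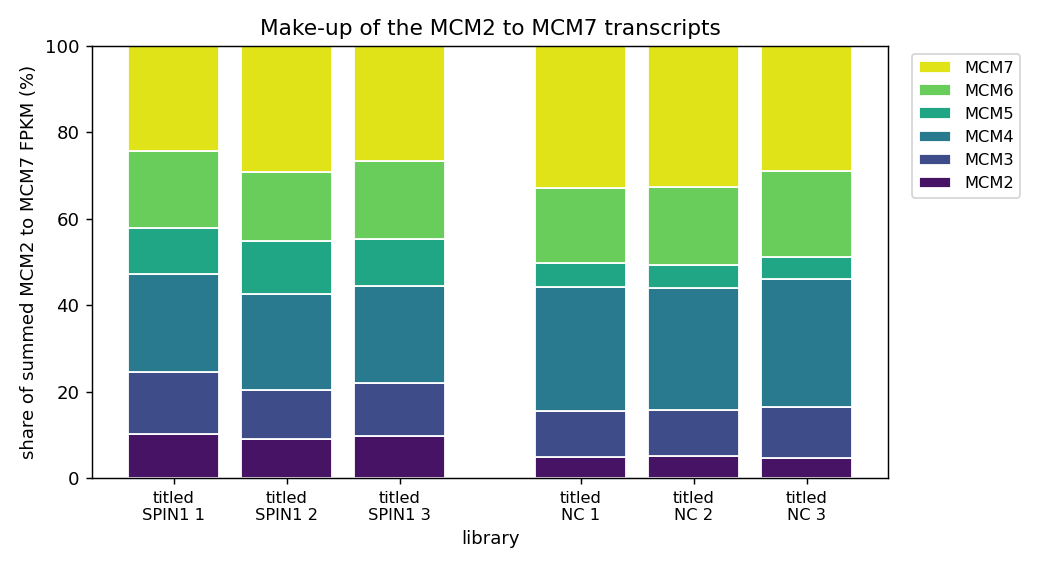
Share of each gene in the summed MCM2 to MCM7 FPKM (percent) in each library, titled SPIN1 on the left and titled NC on the right. The bands of MCM2 and MCM5 are taller in the 3 libraries titled SPIN1 (9.60% and 11.3% in the mean) than in the 3 titled NC (4.89% and 5.30%).

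Of 27 other genes of licensing and its control, 12 were higher, 1 was lower and 14 were not past the threshold. Among all genes tested 17.3% were called higher. The median log2 difference of the 27 was 0.36, against 0.05 for all genes tested. Among the cyclins and the kinase that end licensing at the start of S phase, CCNE1 was at 24.0 ± 2.53 FPKM in the libraries titled SPIN1 and 8.91 ± 0.498 FPKM in those titled NC, and CCNE2 at 2.89 ± 0.458 and 0.323 ± 0.128 FPKM (SD, n = 3 each). Both passed the test, with limma adjusted p of 0.000675 for CCNE1 and 0.000697 for CCNE2. CCNA2 was 3.73-fold higher (limma adjusted p = 0.00680) and CDK2 4.41-fold higher (limma adjusted p = 0.00318). Their counterpart CDC7, the kinase that acts on the loaded ring, was at 3.47 ± 0.732 FPKM in the libraries titled SPIN1 and 2.24 ± 0.375 FPKM in those titled NC (limma adjusted p = 0.0751; 0.0105 with weights per library and 0.0345 when titled SPIN1 replicate 1 was left out). NASP, DBF4B and RBX1 made up the 12. Of the 6 fits with 1 library left out, NASP lost its call in 2, DBF4B in 5 and RBX1 in all 6.

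The 7 ubiquitin ligase genes on this list were grouped after their values were seen. DTL, SKP2, CUL4B and RBX1 were higher, and CUL4A, DDB1 and FZR1 did not pass. RBX1 passed narrowly (limma adjusted p = 0.0408) and lost its call in all 6 fits with 1 library left out. DTL, the substrate receptor that brings CDT1 to the CUL4 ligase, was at 8.06 ± 1.32 FPKM in the libraries titled SPIN1 and 1.51 ± 0.363 FPKM in those titled NC (SD, n = 3 each), and passed the test (limma adjusted p = 0.000830). SKP2, the receptor of the second CDT1 ligase, was 2.68-fold higher (limma adjusted p = 0.00979). Of the paired scaffolds, CUL4B was 2.98-fold higher (limma adjusted p = 0.00594), whereas CUL4A had 2.07, 2.41 and 3.75 FPKM in the libraries titled SPIN1 and 2.21, 2.74 and 2.85 FPKM in those titled NC (limma adjusted p = 0.904). DDB1, the adaptor of the CUL4 ligases, had a limma adjusted p of 0.204, and FZR1, an activator of the anaphase-promoting complex, of 0.664. FBXO5, which restrains that complex, was 4.06-fold higher (limma adjusted p = 0.00594).

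KAT7, an acetyltransferase of histones H3 and H4 that works with CDT1 at origins, was the gene that was lower. It had 2.07, 1.72 and 2.27 FPKM in the libraries titled SPIN1, against 5.73, 5.65 and 5.79 FPKM in those titled NC (log2 difference -1.16, SE 0.11, limma adjusted p = 0.000967), and 10.3% of all genes tested were called lower. Its groups stood well apart. TONSL, which recognises newly laid histone H4, was 3.58-fold higher (limma adjusted p = 0.00123). MCMBP, a chaperone of MCM subunits, was at 33.6 ± 4.92 FPKM in the libraries titled SPIN1 and 30.4 ± 2.27 FPKM in those titled NC (SD, n = 3 each; limma adjusted p = 0.477).

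Of 3 further genes with the MCM name, MCM8 and MCM10 were higher. MCM10, no paralog of the ring subunits but a factor that helps to activate the loaded helicase, had 1.73, 1.46 and 2.11 FPKM in the libraries titled SPIN1, against 0.140, 0.102 and 0.165 FPKM in those titled NC (limma adjusted p = 0.000768). MCM8 was 3.67-fold higher (limma adjusted p = 0.00501), and its fellow paralog and partner in recombination, MCM9, was at 0.789 ± 0.179 FPKM in the libraries titled SPIN1 and 0.913 ± 0.135 FPKM in those titled NC (SD, n = 3 each; limma adjusted p = 0.532). With weights per library MCM9 was lower (log2 difference -0.23, limma adjusted p = 0.0478). Whether MCM8 and MCM9 differ in their response was not tested.

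Set beside 3 lists of later steps, the licensing genes had the highest median difference. Of 14 origin firing genes 13 were tested and all 13 were higher, with a median log2 difference of 1.17; GINS2 (3.52), CDC45 (2.70) and GINS1 (2.13) had the smallest adjusted p. Of 20 genes of the replicative polymerases and lagging-strand processing 17 were higher and 3 not past the threshold, with a median of 1.10; RNASEH2A (1.59), POLE2 (1.97) and PCNA (1.80) had the smallest adjusted p. The medians were not tested against each other. The genes and lists were chosen with earlier results of these data known. The licensing genes leave out ORC2 to ORC5, GMNN and MCMBP, which did not pass, so the order of the medians depends on which genes each list holds.

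**Figure D5:**
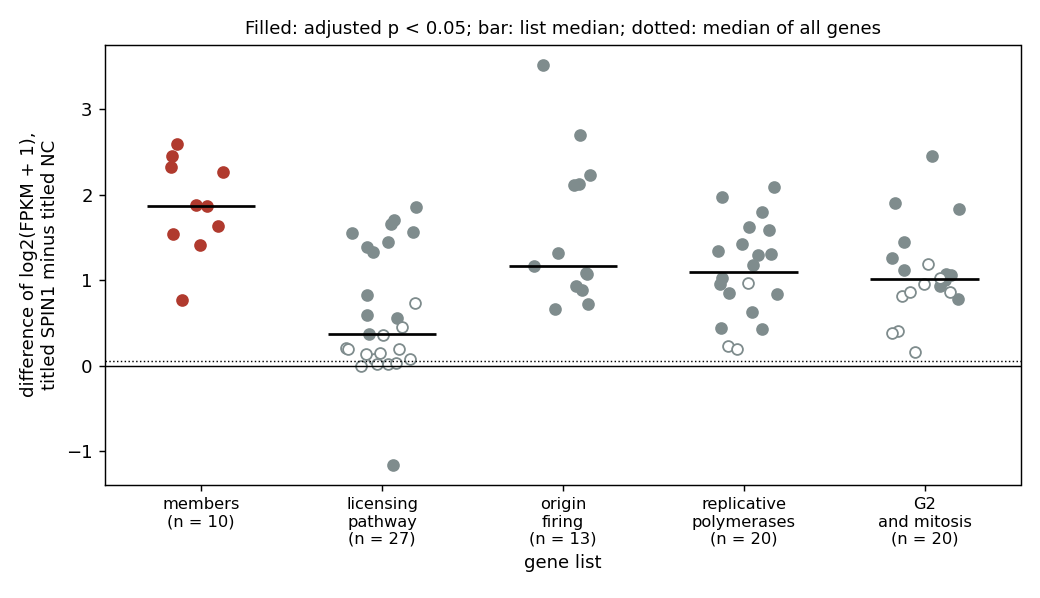
Difference of log2(FPKM + 1), titled SPIN1 minus titled NC, for each gene of 5 lists, filled where limma's adjusted p was under 0.05, with list medians as bars and the median of all genes tested as a dotted line. The licensing genes have a median of 1.87, against 0.36 for the other licensing pathway genes, 1.17 for origin firing, 1.10 for replicative polymerases and 1.01 for G2 and mitosis.

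A library that stood apart in mitotic genes did not do so in most licensing genes. Of 20 genes of G2 and mitosis, titled SPIN1 replicate 1 was the lowest library of its title in 19, with a median deviation from the group mean of -0.64 on the log2 scale. Over the 10 licensing genes the same library was lowest in 3 and highest in 3, with a median deviation of -0.02. It was lowest in ORC6, MCM5 and MCM7. In the other lists it was mostly lowest too: in 18 of 27 pathway genes, 10 of 13 origin firing genes and 14 of 20 polymerase genes. The median deviations there were smaller than in the mitotic genes (-0.16, -0.164 and -0.124). The mitotic list had 11 genes higher (AURKB 1.90, TOP2A 1.84 and BUB1B 1.06 had the smallest adjusted p), which became 19 when titled SPIN1 replicate 1 was left out and 6 when titled SPIN1 replicate 2 was. Leaving out titled NC replicate 1 gave 6, and titled NC replicate 2 gave 7. The calls over all genes tested moved in the same directions. From 1914 higher (17.3%), they became 2045 without titled SPIN1 replicate 1 and 1265 without titled SPIN1 replicate 2. Without titled NC replicate 1 they were 1440, and without titled NC replicate 2 they were 1128. Between 9 and 10 of the licensing genes were higher in each of these fits. Titled NC replicate 1, in which SPIN1 was low, was the lowest of its title in 8 of the 10 licensing genes, with a median deviation of -0.11. The same library was lowest in 17 of the 27 other pathway genes, 9 of 13 origin firing genes and 14 of 20 mitotic genes. Among the 20 polymerase genes it was lowest in 7. Its median FPKM (4.91) was also the lowest of the 6 libraries, and the cause was not tested.

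In the deposited hg19 loci, 5 of the 10 genes start within 1000 bases of a gene on the opposite strand, a comparison chosen after the values were seen, over genes in the same table. PRKDC, the DNA-dependent protein kinase, starts 2 bases from MCM4 and had 14.8, 17.2 and 20.2 FPKM in the libraries titled SPIN1, against 6.06, 6.49 and 10.9 FPKM in those titled NC (log2 difference 1.09, SE 0.22, limma adjusted p = 0.0134). VPS35, an endosomal sorting protein, starts 125 bases from ORC6 and was higher too, by 0.53 (SE 0.10, limma adjusted p = 0.00930). Near ORC1, MCM2 and MCM7 the groups of PRPF38A (limma adjusted p = 0.123), TPRA1 (0.875) and AP4M1 (0.128) overlapped. TPRA1 and MCM2 overlap by 29 bases and AP4M1 and MCM7 by 392; the library kit keeps the strand, but no source used here says whether the counting used it, so reads in those stretches cannot be assigned with certainty.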

How the data were processed

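Trizol extraction, oligo-dT enrichment and strand-specific paired-end sequencing are recorded per the labels' protocols. Per the submitters' processing notes, FastQC, cutadapt, HISAT2 and StringTie were used with hg19; versions and settings were not stated. The authors deposited FPKM per gene, per the file headers. FPKM depends on the other genes of a library, and no source used here says how reads of similar genes were assigned. Between libraries of one title, the log2 ratios of the 12 to 35 genes below 0.15 FPKM did not repeat (4 or fewer within a width of 0.02), so no step of whole reads was found and depth is unknown.

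limma 3.58.1 in R 4.3.3 (trend, robust moderation) was fitted on log2(FPKM + 1) to 11061 of 11314 genes, those whose mean reached 0.5 FPKM; a log2 difference on this scale understates the change of low genes. Folds are ratios of mean FPKM. Ratios between genes used log2(FPKM + 0.1) and exact permutation over libraries (scipy 1.17.1). The code was tested on simulated data. Groups came from the titles. The genes and lists were chosen with earlier results of these data known. All 10 licensing genes, SPIN1, ALKBH3, fixed partners (ORC2 to ORC5, GMNN, MCMBP, CDC7, MCM8 to MCM10), up to 10 other pathway genes and 3 per comparison list by adjusted p, and the 5 most alike genes were named, together with marker genes, CUL4A and neighbours. Alternatives were pseudocounts, filters, scaling, moderation, library weights, the replicate number as a block and leaving out each library; one more, without both libraries numbered 1, was chosen after seeing the data.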

Additional observations from a re-analysis of the deposited data

How the results depend on the processing

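Of 45 named genes, 34 kept their direction and their side of the threshold in every alternative fit run, 16 for most and 15 for CCNE2, MCM9, MCM10 and SKP2, which a minimum of 2 FPKM leaves out. ORC6, GMNN, ORC3, CDC7, SPIN1 and MCM9 changed side in at least 1; CDC7 also passed with the replicate block (limma adjusted p = 0.0267). With weights per library 3106 genes were higher and 2304 lower; with 1 library left out 1128 to 2045 were higher and 641 to 1251 lower. The number of licensing genes called higher was 9 or 10 in all of these fits. The mitotic count was 6 to 19 with 1 library left out, and 19 with weights per library or with both libraries numbered 1 left out. The MCM3 ratio ran from -0.171 to 0.014, turning without titled SPIN1 replicate 2; the signs of the 5 other MCM ratios and of the ORC1, ORC6 and CDT1 ratios held. Differences near 0 turned: ORC4 with median scaling (-0.048), quantile normalization (-0.048), weights (-0.175), both libraries numbered 1 left out (-0.130), and without titled NC replicate 1 (-0.072) or titled SPIN1 replicates 1 (-0.043) or 3 (-0.015), in a range of -0.072 to 0.104 with 1 library left out; ORC5 with median scaling (-0.043), quantile normalization (-0.060), and without titled NC replicate 1 (-0.019) or titled SPIN1 replicates 2 (-0.039) or 3 (-0.054), in a range of -0.054 to 0.154; ORC2 (-0.006) and MCMBP (-0.069) with weights; ALKBH3 (0.059) with both libraries numbered 1 left out. The cause was not tested. Same-numbered libraries had correlations of deviations of 0.216, 0.055 and 0.148, and differently numbered ones of -0.211 to 0.076. Each library titled SPIN1 correlated most with the library titled NC of its own number. Titled NC replicate 2, however, correlated more with titled SPIN1 replicate 3 (0.076). Whether the numbers pair the samples was not tested. With the replicate block 2048 genes were higher and 1251 lower, and 10 licensing genes were higher. Without counts, the precision of each value rests on 3 libraries per title.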

Other observations

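Among 8574 other genes whose mean reached 2 FPKM, the 5 whose log2 levels over the 6 libraries were most correlated with the mean standardised profile of the licensing genes were SLC20A1 (Pearson r = 0.9992), BRI3BP (0.999), OIP5 (0.999), GINS2 (0.9988) and ANXA11 (0.9986). The 6 points form 2 groups of 3 that share a title, and 115 genes reached 0.99, so these values are a description of a shared difference between titles. The licensing genes themselves had r of 0.8428 to 0.9994 with their mean profile. SLC20A1, a phosphate importer of the plasma membrane, had 48.5, 48.4 and 51.7 FPKM under the title SPIN1, against 18.7, 19.8 and 20.04 FPKM under the title NC. OIP5, part of the complex that prepares centromeres for new CENPA, was at 10.3 ± 0.736 FPKM in the libraries titled SPIN1 and 3.71 ± 0.0933 FPKM in those titled NC (SD, n = 3 each). GINS2 is the only replication gene among the 5.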
